A study of Mus musculus with 15 samples.

Results

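Accessible chromatin was described in untreated CD4+ T cells of wild-type mice, from 4 ATAC-seq libraries and the list of 40146 peaks that the authors deposited as final for this state. The members are the libraries labelled as untreated cells (0 h) with an intact Irf5 gene (IRF5+/+), 4 of the 15 libraries of the series. The other libraries came from cells without Irf5 or from cells sampled at 72 h, and they are not used here. In ATAC-seq the Tn5 transposase inserts sequencing adapters into DNA that is free of tightly packed nucleosomes, so that a pile-up of fragments (a peak) marks an accessible stretch. The strain, age and sex of the mice, the organ the cells came from and their purity are not stated in the sources read here. Nothing in the labels says that each library is its own animal or culture, and the spread between them may be technical. No comparison between groups is made, and no test was run apart from an outlier rule given near the end.

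CD4+ T cells recognise antigen through the T cell receptor with CD4 as coreceptor, and naive cells stay quiescent and recirculate through lymph nodes until they meet antigen. After activation they can become helper lineages that are defined by regulators and a set of cytokines. Th1 cells use T-bet (Tbx21) and make interferon gamma, Th2 cells use Gata3 and make interleukins 4, 5 and 13, and Th17 cells make interleukin 17. Regulatory T cells use Foxp3, and follicular helper cells use Bcl6. In T cells, regulatory elements of a gene often lie inside its introns or many kilobases away, and accessibility of such elements can precede transcription of the gene.

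The promoters below are printed because the findings turn on them: those of 2 lineage regulators and 2 cytokines that lay wholly inside a final peak, and those of a regulator and 2 cytokines that no final peak touched. Each runs 5′ to 3′ on the gene's strand from 250 bases before to 50 bases after a RefSeq transcript start, in mm10 (RefSeq GRCm38.p6). Capitals mark exact matches, on either strand, to the 9 short motifs listed further on. The windows inside peaks were Tbx21 at chr11:97115282-97115581 (minus strand), Gata3 at chr2:9878551-9878850 (minus), Ifng at chr10:118440796-118441095 (plus) and Il2 at chr3:37125905-37126204 (minus). The windows outside peaks were Foxp3 at chrX:7579426-7579725 (plus), the first of 2 Foxp3 windows, Il4 at chr11:53618616-53618915 (minus), the upstream one of 2 Il4 windows, and Il17a at chr1:20730655-20730954 (plus).
Tbx21: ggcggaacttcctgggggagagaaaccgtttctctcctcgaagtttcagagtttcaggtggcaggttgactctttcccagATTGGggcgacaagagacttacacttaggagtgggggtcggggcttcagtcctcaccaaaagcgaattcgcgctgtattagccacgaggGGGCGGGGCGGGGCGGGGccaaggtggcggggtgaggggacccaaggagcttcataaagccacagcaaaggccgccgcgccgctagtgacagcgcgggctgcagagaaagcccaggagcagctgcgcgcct
Gata3: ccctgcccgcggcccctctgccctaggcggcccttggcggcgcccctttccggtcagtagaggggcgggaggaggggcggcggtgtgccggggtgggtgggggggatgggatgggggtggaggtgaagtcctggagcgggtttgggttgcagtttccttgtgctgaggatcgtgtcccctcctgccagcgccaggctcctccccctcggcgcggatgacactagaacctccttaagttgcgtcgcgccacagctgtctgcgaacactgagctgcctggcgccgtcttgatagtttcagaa
Ifng: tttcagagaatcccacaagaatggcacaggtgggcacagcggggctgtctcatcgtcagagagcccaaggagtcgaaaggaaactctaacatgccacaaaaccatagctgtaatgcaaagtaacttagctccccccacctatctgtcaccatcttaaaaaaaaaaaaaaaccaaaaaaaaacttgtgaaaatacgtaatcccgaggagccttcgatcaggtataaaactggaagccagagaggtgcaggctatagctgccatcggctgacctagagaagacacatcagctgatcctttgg
Il2: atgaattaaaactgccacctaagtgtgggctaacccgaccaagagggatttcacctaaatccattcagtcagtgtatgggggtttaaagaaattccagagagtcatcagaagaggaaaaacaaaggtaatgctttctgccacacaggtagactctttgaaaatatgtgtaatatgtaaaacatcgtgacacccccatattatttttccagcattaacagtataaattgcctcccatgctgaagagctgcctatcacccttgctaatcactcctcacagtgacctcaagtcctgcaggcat
Foxp3: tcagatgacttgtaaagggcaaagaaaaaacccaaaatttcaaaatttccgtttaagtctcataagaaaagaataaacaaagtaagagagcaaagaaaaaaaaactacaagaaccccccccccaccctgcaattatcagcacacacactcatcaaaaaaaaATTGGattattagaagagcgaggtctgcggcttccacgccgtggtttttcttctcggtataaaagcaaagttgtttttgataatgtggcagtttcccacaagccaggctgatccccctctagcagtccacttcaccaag
Il4: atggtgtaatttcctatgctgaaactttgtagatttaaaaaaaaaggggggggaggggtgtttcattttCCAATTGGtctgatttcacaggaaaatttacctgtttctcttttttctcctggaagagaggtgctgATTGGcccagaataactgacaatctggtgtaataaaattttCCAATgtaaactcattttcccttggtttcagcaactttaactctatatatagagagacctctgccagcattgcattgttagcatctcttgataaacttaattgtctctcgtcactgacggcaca
Il17a: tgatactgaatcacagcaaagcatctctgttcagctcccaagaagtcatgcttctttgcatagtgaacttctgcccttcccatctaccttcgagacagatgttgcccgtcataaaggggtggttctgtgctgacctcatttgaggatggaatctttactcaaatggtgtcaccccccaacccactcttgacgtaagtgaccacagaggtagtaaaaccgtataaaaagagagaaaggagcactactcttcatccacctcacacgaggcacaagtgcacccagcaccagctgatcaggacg
The Tbx21 window holds 3 matches to the KLF and SP motif and 1 to NFY, and the Il4 window 4 matches to NFY. The Foxp3 window has 1 NFY match, and the Gata3, Ifng, Il2 and Il17a windows have none of the 9 motifs. The GC content was 62.0% for Tbx21, 67.3% for Gata3, 46.0% for Ifng, 42.0% for Il2, 40.7% for Foxp3, 38.0% for Il4 and 48.3% for Il17a.

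After duplicates were removed, the libraries held 22.4 M, 29.0 M, 24.7 M and 25.3 M fragments (libraries 1 to 4), which limits the calling of weak peaks. Library 1, with the fewest fragments and the highest share of duplicates (29% against 17% to 25%), had 39807 peaks, and libraries 2, 3 and 4 had 47790, 47625 and 47763. The mean was 45746 ± 3960 peaks (SD, n = 4), covering 30.8 ± 2.83 Mb. Library 3 had the shortest fragments (151 bp on average, against 170 to 182 bp) and the narrowest peaks (median 490 bp, against 572 to 630 bp). Its median fold enrichment, the height of a peak over its local background, was the highest, at 8.01 against 6.84 to 7.42. Library 4 was made from an alignment numbered 5, per the file headers.

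Peaks of the final list were found again in nearly every library, which the way the list was made partly builds in. Of the 40146 final peaks, 34311 (85.5%) were overlapped by a peak in all 4 libraries and 5785 (14.4%) in 3. Only 23 were overlapped in 2 libraries and 27 in 1. The final list kept 67.7% of the 59308 peaks called on the 4 libraries merged, and of the 19162 merged peaks left out, 92 were overlapped in 3 libraries and 5 in 4. Membership of the final list therefore nearly coincided with a peak in at least 3 libraries, although no source read here gives the authors' rule. Among final peaks overlapped in 3 libraries, library 1 was the missing one for 3580 (61.9%), and each of the others for 663 to 835. Library 1 overlapped 91.0% of the final peaks, and libraries 2, 3 and 4 overlapped 98.3%, 97.8% and 98.2%.

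Weak and narrow peaks were the ones that a library missed. Final peaks overlapped in all 4 libraries had a median fold enrichment of 9.32 and a median width of 960 bp, against 4.96 and 506 bp for those overlapped in 3. In the lowest decile of final peaks by fold enrichment (1.49 to 4.29), 52.5% were overlapped in all 4 libraries. That share was 90.4% in the fifth decile and rounded to 100% in the highest (14.8 to 45.9). It was not complete there, since 99 of the 100 strongest peaks were overlapped in all 4 libraries. Over the 34311 peaks found in all libraries, the fold enrichments of any pair of libraries had a Spearman correlation between 0.914 and 0.939. The points are peaks that share a caller and an alignment pipeline, so this is a description and carries no p.

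Most accessible stretches lay inside genes or far from their ends, and the minority at gene ends were wider and stronger. Of the final peaks, 11572 (28.8%) lay within 1 kb of either end (bound) of a protein-coding gene, and 9573 (23.85%) overlapped a bound. Another 16485 (41.1%) lay in a gene body more than 1 kb from a bound. Outside genes, 6232 (15.5%) lay 1 to 20 kb from the nearest gene, 4240 (10.6%) 20 to 100 kb and 1617 (4.03%) over 100 kb. The gene table gives no strand, so a bound is a gene's start or its end. Distance was measured from the nearest edge of a peak, so a wide peak comes within 1 kb of a bound more easily. The part of this in the widths at bounds, and in the share of wide peaks there, was not tested. The share within 1 kb of a bound was 28.6% in library 1 and 25.3%, 25.6% and 25.7% in libraries 2, 3 and 4. The median gap between neighbouring final peaks was 13052 bp.

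Peaks within 1 kb of a bound had a median width of 1225 bp and a median fold enrichment of 11.3. In the other 4 position classes the medians ran from 738 to 779.5 bp and from 7.39 to 8.203. The same order held in each library: at gene bounds the median widths were 1016, 1030, 885 and 1003 bp in libraries 1 to 4, and in gene bodies 516, 511, 415 and 479 bp. The median fold enrichment at bounds was 10.2, 10.4, 12.1 and 11.4, and in gene bodies 5.86, 6.02, 6.86 and 6.38. No library's value at bounds overlapped any library's value in gene bodies for either measure. Of the peaks at bounds 94.8% were overlapped in all 4 libraries, against 81.0% to 83.5% in the other classes. Peaks over 100 kb from any gene had values near those of gene bodies, with a median width of 769 bp and a median fold enrichment of 7.83.

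**Figure D1:**
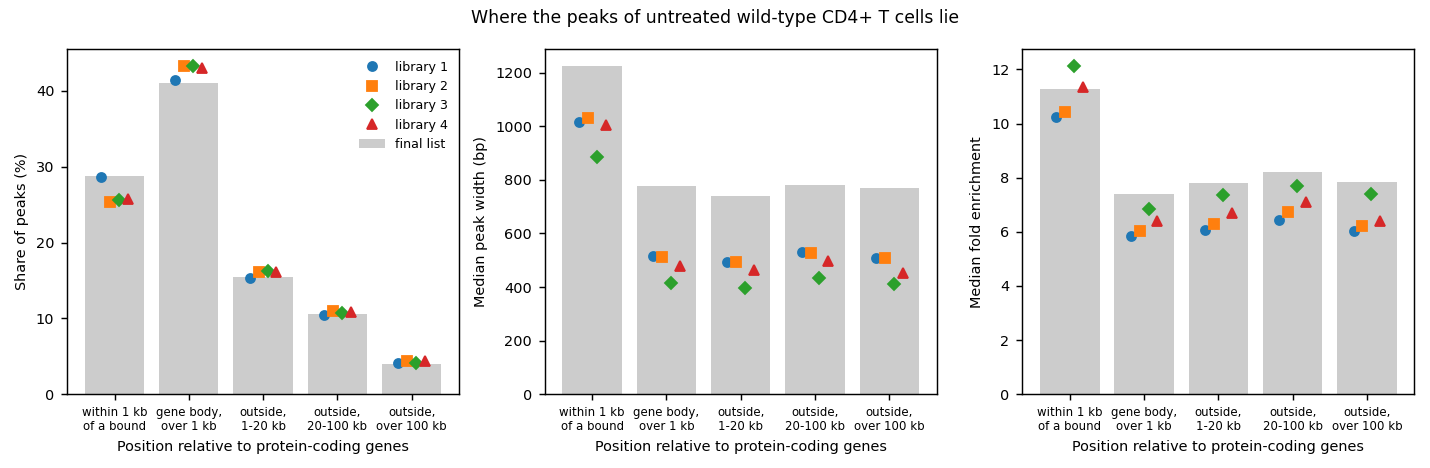
Share of peaks (%), median peak width (bp) and median fold enrichment by position relative to protein-coding genes; grey bars are the final list and points are libraries 1 to 4. Peaks within 1 kb of a gene bound are 28.8% of the final list and have the widest (1225 bp) and strongest (11.3) medians of the 5 classes.

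Peak width in the final list had a median of 884 bp and ran from 194 to 4102 bp. The 1333 peaks of 2000 bp or more (3.32%) lay within 1 kb of a gene bound in 66.7% of cases, and 99.6% of them were overlapped in all 4 libraries. Of the 4808 peaks of 300 to under 500 bp, 7.49% lay within 1 kb of a bound and 47.8% were overlapped in all 4. Width and strength rose together over the whole list (Spearman 0.402, n = 40146 peaks), but not among the 11572 peaks at gene bounds (−0.0134). Both correlations are over peaks of 1 list and are given with no p. In the strongest decile 58.5% of peaks lay within 1 kb of a bound, against 16.7% in the weakest decile.

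Foxp1, Bach2 and Akap13 collected the most final peaks. The 10 genes with the most peaks were 114.1 to 913.1 kb long, and Btg1, which tied with the last of them, was 5.8 kb long. Each peak was given to the gene whose body it overlapped, or otherwise to the nearest gene within 100 kb. Foxp1, a forkhead factor that keeps naive T cells quiescent (chromosome 6, 98925342 to 99522746), had 58 final peaks, and its counts in libraries 1 to 4 were 62, 66, 66 and 75. Bach2, a transcriptional repressor that restrains effector differentiation (chromosome 4, 32238413 to 32586109), had 47 final peaks, with 45, 58, 57 and 52 in the libraries. All 4 libraries gave Foxp1 more peaks than they gave Bach2. Akap13, an anchoring protein of protein kinase A, followed with 44 final peaks (47, 52, 56 and 55 in libraries 1 to 4).

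Inpp4b, a phosphoinositide phosphatase, had 40 final peaks, Wwox, an oxidoreductase gene that spans 913.1 kb, had 37, and Sgms1, a sphingomyelin synthase, had 35. Sgms1 had 35 peaks in library 1 and 42, 42 and 43 in libraries 2, 3 and 4. Ets1, an ETS factor of the T lineage, had 33 final peaks (32, 38, 36 and 38 in the libraries). Lef1, an HMG-box factor of the Wnt pathway that acts with Tcf7 in T cell development, had 31 (34, 31, 34 and 36). The nuclear receptor coregulator Rere and the chromatin remodeller Chd7 had 30 each, as had the antiproliferative gene Btg1, whose tie places it beside them. Libraries ordered the genes near these counts differently, so neighbours such as Ets1 and Lef1 did not differ beyond the spread of libraries.

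How the peaks of these genes were laid out differed. Of the 58 Foxp1 peaks, 1 lay within 1 kb of a bound and 1 outside the gene, so that nearly all were inside the gene away from its ends. Of the 30 Btg1 peaks, 3 lay at the 5.8 kb gene and 27 lay outside it by more than 1 kb. Bach2 had 10 and Akap13 12 peaks more than 1 kb outside the gene. The strongest single peaks at these 11 genes were at Inpp4b (18.1), Rere (17.6), Wwox (16.7) and Foxp1 (16.7). In all, 546 protein-coding genes (2.495%) had at least 10 assigned peaks and held 8032 final peaks (20.01%). Their median length was 118700 bp, against 17170 bp over all protein-coding genes.

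**Figure D2:**
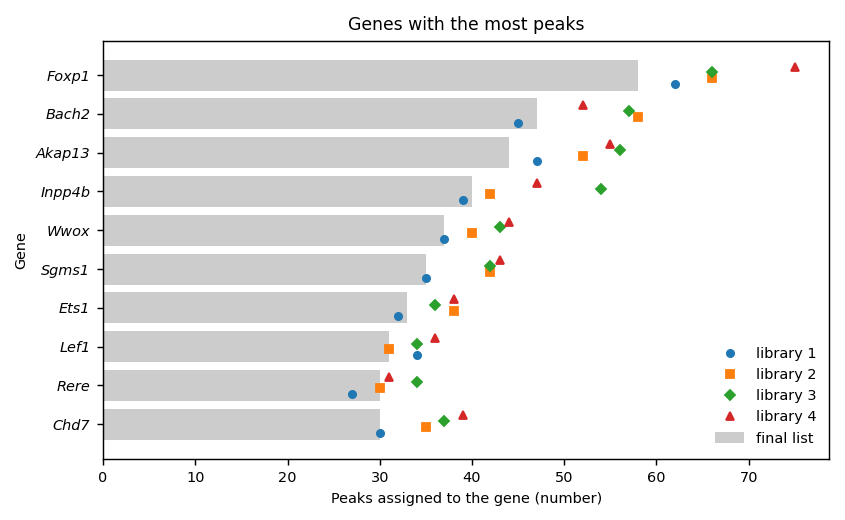
Number of peaks assigned to each of the 10 genes with the most final peaks; grey bars are the final list and points are libraries 1 to 4. Foxp1 leads with 58 final peaks and 62 to 75 in the libraries, and Chd7 closes the list with 30 final peaks and 30 to 39 in the libraries.

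Set against length, other genes came first among those of at least 10 kb. Shorter genes were not ranked, and Btg1, which is shorter, had 38.4 peaks per 100 kb of gene and flanks. Among genes of at least 10 kb, Cd2, an adhesion receptor of T cells (12032 bp), had the highest density, with 5 peaks at the gene or 35.6 per 100 kb of gene and flanks. Rinl followed with 4 peaks (33.1 per 100 kb). Cd3e, a signalling chain of the T cell receptor, had 4 peaks (30.9), Selplg, the selectin ligand PSGL-1, 5 (29.9) and Cd40lg, the CD40 ligand through which helper cells signal to B cells, 4 (28.8). Tbr1, a T-box factor known from the brain, had 4 peaks (30.2), as had Commd8 (29.4) and Tap2, a subunit of the peptide transporter of antigen presentation (28.9). The potassium channel gene Kcnn4 had 5 (28.8), and Sfi1, with 71498 bp the longest of the 10, had 21 (28.6). The densest stretches of 100 kb held 20 to 26 final peaks, against a median of 5 in the 100 kb from a final peak. They lay at Sfi1 (26 peaks), Ets1 (23), Btg1, Bcl11b and Ubac2 (22 each), Lef1 (21), and at Ccr7, Grap2, Rhoh and the Gimap genes (20 each). In the Ets1 stretch the libraries had 21, 26, 25 and 27 peaks, and in the stretch at Ccr7, the receptor that guides naive T cells into lymph nodes, 21, 22, 25 and 22. Repeats, duplicated sequence and mappability at these genes and stretches, Sfi1 included, were not analysed.

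None of the 10 strongest peaks lay in or nearest to a gene of the lists examined further on. The 10 with the highest fold enrichment ran from 30.7 to 45.9, were 219 to 932 bp wide and were overlapped in all 4 libraries. The strongest lay at chromosome 12, 55230322 to 55231122, in Srp54c, a gene for a signal recognition particle subunit. Its fold enrichment was 45.9 in the final list and 22.1, 35.4, 43.6 and 40.05 in libraries 1 to 4, the first value standing below the others. The next was 61548 bp from the predicted gene Gm15319 on chromosome 8, at 41.4. The third lay in Lars2, a mitochondrial leucyl-tRNA synthetase, at 39.4 (35.9, 36.5, 45.4 and 39.6 in the libraries). The others were nearest to or in Col19a1, Zc3h7a, Gm52481, Dynlt1a, Gm19802, Chl1 and 9930111J21Rik2, at 38.1 down to 30.7. Of the 10, 4 lay within 1 kb of a gene bound and 5 in a gene body. Repeats and mappability at these peaks were not analysed here.

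The widest peaks were of modest height. Their fold enrichments ran from 2.97 to 6.69, below the median of 8.499 over all final peaks, and their widths from 3731 to 4102 bp. Of the 10, 7 lay within 1 kb of a gene bound, and all were overlapped in all 4 libraries. The widest lay at Tgif1, a homeobox repressor of the TGF-beta pathway (chromosome 17, 70849749 to 70853850), with a fold enrichment of 4.36 (4.57, 4.38, 4.86 and 4.63 in the libraries). Ubtf, the upstream binding factor of ribosomal RNA transcription, followed with 4051 bp, and Socs2, a suppressor of cytokine signalling, with 3934 bp. The others were at Hivep2, LOC102634078, Patz1, L3mbtl3, Cdk6 and Rbpms, and 1 lay 103659 bp from its nearest protein-coding gene, Esp38. Repeats, mappability and genes that do not code for protein were not analysed at the widest peaks.

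Genes of the T cell programme had a peak without exception in the lists examined. Over all 21887 protein-coding genes, 13757 (62.9%) had a final peak in the gene body or within 1 kb of it (at the gene), 2006 (9.17%) had one within 20 kb only and 6124 (28.0%) had none within 20 kb. In all 4 libraries a peak was at the gene for 13337 genes (60.9%). Genes with a peak were longer (median 23820 bp) than those with none within 20 kb (6488 bp), and the lists below were not matched for length. All 20 T cell identity genes, all 20 naive and quiescence genes and all 20 activation genes had a final peak at the gene and a peak there in each library. Within 1 kb the identity genes had a median of 4.5 final peaks, the naive genes 3 and the activation genes 2, against 1 over all protein-coding genes.

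Among the identity genes, Ets1 had 25 peaks at the gene, the T lineage factor Bcl11b 21, Runx1 20 and Cd247, the zeta chain of the T cell receptor complex, 15. Cd4 itself (chromosome 6, 124864693 to 124888247) had 2 final peaks at the gene, the stronger with a fold enrichment of 11.03 (10.5, 10.7, 13.8 and 12.3 in libraries 1 to 4). The weakest strongest peak of the list was at Thy1, a surface glycoprotein of T cells, at 3.87. Libraries 1, 2 and 3 had it at 2.92, 4.49 and 4.12, and library 4 lacked it. Among the naive genes, Foxp1 had 57 peaks at the gene, Bach2 37, Lef1 22 and the chromatin organiser Satb1 15. Tcf7, the partner of Lef1, had 5 (5, 9, 9 and 7 in the libraries). S1pr1, the receptor for lymph node exit, had 2.

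Genes that are known to be induced by T cell receptor signals had peaks in these untreated cells as well. Nfatc1, a calcium-dependent factor, had 12 peaks at the gene, the adhesion receptor Cd44 8 and the costimulatory receptor Tnfrsf9 4. The strongest peak at Fos, an AP-1 subunit, had a fold enrichment of 10.9 (11.6, 11.2, 12.7 and 11.01 in libraries 1 to 4). That at Myc, a factor of growth and proliferation, was the lowest of the list at 3.999 (4.15, 4.32, 4.29 and 4.16). At both genes the libraries lay close together, and their ranges did not overlap. A peak at a gene is not a measure of its transcription.

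Some markers of other cells had peaks at their genes and others had none. A final peak was at 6 of 10 B cell genes (60%, near the 62.9% of all genes), 4 of 10 myeloid genes (40%), 5 of 10 CD8 and NK cell genes (50%), 4 of 8 erythroid and platelet genes (50%) and 4 of 12 genes of other tissues (33.3%). These short lists were not tested against the T cell lists or against all genes. Ms4a1 and Cd79b of B cells, Lyz2, Adgre1, S100a8 and S100a9 of myeloid cells, and Ncr1, Klrb1c and Gzmb of NK and cytotoxic cells had no peak at the gene in any library. By contrast, the myeloid genes Itgam (strongest final peak at 9.30), Cd14 (8.23), Cebpa (8.67) and Fcgr3 (9.79) and the NK and cytotoxic genes Klrd1 (12.5) and Prf1 (10.5) had a peak at the gene in all 4 libraries, as had the erythroid regulator Klf1 (17.0). Pax5 and Ebf1, the regulators of B cell identity, did have peaks at the gene, 3 and 2, with fold enrichments up to 11.1 and 15.1. The B cell genes Cr2 (14.9), Blnk (12.3), Blk (5.16) and Cd79a (4.17) also had a peak at the gene in all 4 libraries. Cd8a had 1 peak, at 5.83 (4.82, 5.75, 4.31 and 6.40 in the libraries), and Cd8b1 1, at 12.4. No peak of the final list or of any library overlapped the promoter windows of Pax5, Ebf1, Klf1 and Cd8a. Those of Blnk, Cr2, Cebpa and Prf1 were overlapped in all 4 libraries. The presence of other cell types in the samples was not tested. In bulk samples, fewer cells with an open site and less opening per cell cannot be told apart.

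**Figure D3:**
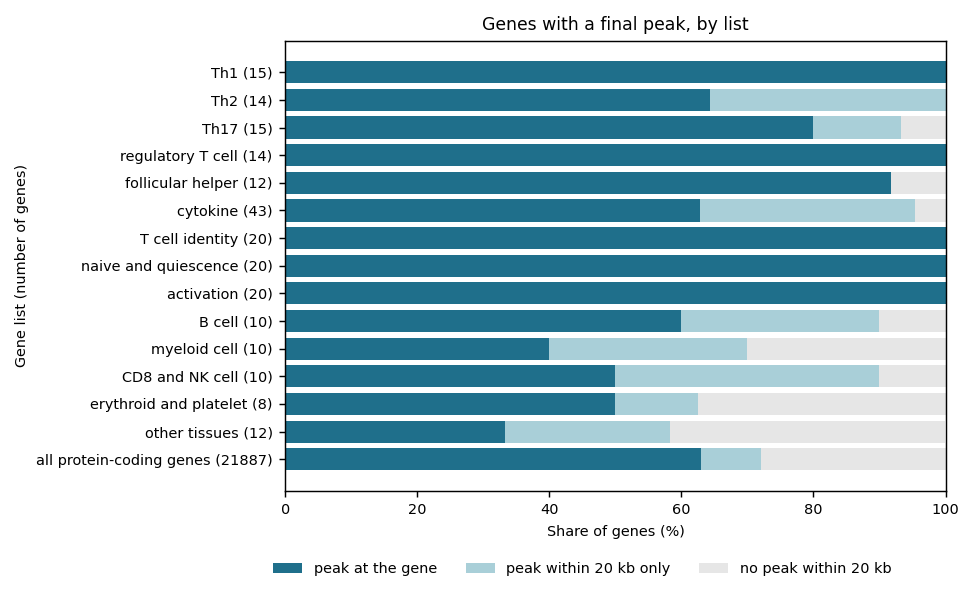
Share of genes (%) of each list, with the number of genes in brackets, that had a final peak at the gene, within 20 kb only, or not within 20 kb. The T cell identity, naive and quiescence, activation, Th1 and regulatory T cell lists are full, and the bar of all protein-coding genes reaches 62.9% at the gene.

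Of the 70 helper-lineage genes, 61 (87.1%) had a final peak at the gene, against the 62.9% of all protein-coding genes, and 60 had one in each library. A further 7 had a peak within 20 kb only, and 2, Il17f and Ascl2, had none. Without the cytokines the count was 59 of 61. Tbx21, Eomes, Gata3, Maf, Rora, Foxp3 and Bcl6 each had a peak at the gene, whereas 8 of 15 signature cytokines did. In libraries 1 to 4 the numbers of helper-lineage genes with a peak were 61, 60, 62 and 63.

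The Th1 list was complete, with a peak at 15 of 15 genes in the final list and in each library. Over all protein-coding genes these shares were 62.9% and 60.9%. Tbx21, the Th1 regulator (chromosome 11, 97098007 to 97115331), had 3 final peaks at the gene. The peak over the printed promoter was 1735 bp wide and had a fold enrichment of 5.53 (4.01, 4.95, 6.003 and 6.38 in libraries 1 to 4). A second peak in the gene was at 5.19 (4.59, 3.61, 5.97 and 4.73), and the remaining peak, at 6.20, was missing in library 1. A stronger peak lay 11464 bp above the upper bound of the gene, at 11.4 (9.24, 9.52, 14.6 and 12.2). Eomes, the related T-box factor of memory and cytotoxic cells, had 1 broad peak of 3094 bp at the gene, at 4.15 (4.79, 3.49, 4.83 and 5.06). It too had a stronger peak outside, 1672 bp above the gene, at 10.4 (7.87, 10.3, 12.3 and 10.7).

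Several receptors and signal transducers of the Th1 pathway had more peaks than Tbx21. Stat4, which carries the interleukin 12 signal, had 10 peaks at the gene, the strongest at 15.9 (13.4, 15.2, 19.3 and 15.7 in libraries 1 to 4). The interleukin 18 receptor chain Il18r1 had 7, and Runx3 and the interleukin 12 receptor chain Il12rb2 had 6 each. The strongest peak at Il12rb2 was at 15.4 (14.4, 15.6, 18.0 and 18.3). The chemokine receptor Cxcr3 had 1 peak, at 4.80 (4.20, 5.11, 4.49 and 6.18). In every library the strongest peaks at Stat4 and Il12rb2 were higher than the strongest peak at Tbx21, but they were taken over more peaks. Stat4, Il18r1, Runx3 and Il12rb2 are 120084, 35303, 57346 and 90308 bp long, against 17325 bp for Tbx21. These counts and strongest values are not adjusted for length.

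A final peak was at 9 of 14 Th2 genes (64.3%), near the 62.9% of all protein-coding genes. The other 5 had one within 20 kb only. These were the cytokine genes Il4, Il5, Il13 and Il24 and the prostaglandin D2 receptor gene Ptgdr2, at which libraries 3 and 4 had a peak (4.62 and 5.01) and libraries 1 and 2 none. Gata3 (chromosome 2, 9857078 to 9887953), the Th2 regulator that is also needed for CD4 lineage choice, had 4 peaks, each found in all 4 libraries. The peak over the printed promoter had a fold enrichment of 4.68 (4.84, 4.52, 5.59 and 5.60 in libraries 1 to 4) and the strongest, inside the gene, 8.26 (8.10, 8.502, 9.19 and 9.34). In libraries 3 and 4 the peaks that overlapped the promoter window itself were at 3.8 and 4.22. Maf, a bZIP factor that drives interleukin 4 and interleukin 21, had 1 peak, at 8.98 (9.42, 9.66, 10.5 and 10.02). At the strongest peak of both genes library 1 was lowest. The interleukin 4 receptor gene Il4ra had 4 peaks, Stat6, which carries its signal, and Rad50, a DNA repair gene that holds the locus control region of the Th2 cytokines, 3 each, and Nfil3 and Ccr8 2 each. The 1 peak counted for Il1rl1 lies 70 bp outside it and in its neighbour Il18r1.

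Il4 (chromosome 11, 53612460 to 53618665), Il13 and Il5, the Th2 cytokines, had no peak at the gene in the final list or in any library. A single weak peak of the merged list, at 2.92, lay at Il4. The nearest final peaks were 2338 bp from Il4 (5.26; none in library 1, then 6.73, 4.48 and 5.77), 3127 bp from Il13 (6.71; 6.35, 5.44, 7.46 and 8.35) and 10312 bp from Il5 (6.61; 5.01, 8.24, 8.41 and 6.44). The strongest peak at these genes' neighbour Rad50, 13023 bp from Il5 and across the upper bound of Rad50, was at 17.5 (15.03, 15.6, 18.8 and 17.0), higher in every library than the peaks nearest to the cytokine genes. The Rad50 peaks 38021 and 44250 bp from Il4 were weaker. They were at 7.17 (none in library 1, then 7.94, 6.47 and 5.56) and 5.05 (5.10, 4.33, 5.54 and 4.17). Which of these peaks lie in the locus control region was not examined. The lack of a called peak does not show that chromatin there is closed.

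The Th17 list had a peak at 12 of 15 genes (80%), against 62.9% of all protein-coding genes. Rora, an orphan nuclear receptor that takes part in Th17 differentiation, had 23 peaks, the strongest at 13.4 (12.6, 13.4, 16.1 and 15.1 in libraries 1 to 4), but its promoter window was not overlapped. The interleukin 6 receptor genes Il6ra and Il6st had 11 and 6 peaks, Stat3, which carries their signal, 7 and Irf4 4. Il17a and Il22 had their nearest final peak 5961 and 9078 bp away, and Il17f 34343 bp away. None of the 3 had a peak at the gene in any library.

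All 14 regulatory T cell genes had a peak at the gene in each library, against 60.9% of all protein-coding genes. Foxp3, their regulator (chromosome X, 7579676 to 7595243), had 3 final peaks. The summits of those in the gene lay 4.499 and 7.056 kb from its lower bound, at 5.66 (6.31, 4.16, 5.78 and 5.33 in libraries 1 to 4) and 4.79 (4.74, 4.31, 5.77 and 5.15), and the third lay across its upper bound and in the neighbour Ccdc22. Neither of its 2 promoter windows was touched by a peak of the final list or of any library. Ikzf2, which encodes Helios, had 13 peaks, the semaphorin receptor Nrp1 and the ectonucleotidase Entpd1 10 each, and Il2ra, the high-affinity interleukin 2 receptor chain CD25, 7. The strongest peak at Il2ra, at 13.0, was missing in library 1, and libraries 2, 3 and 4 had it at 14.5, 14.0 and 13.4. The next, at 12.3, lay across the lower bound of the gene and was found in all 4 libraries (11.5, 14.0, 12.9 and 12.8). Tnfrsf18, named after its value was seen, had the lowest strongest peak of the list, at 2.36 (2.57, 2.56, 2.202 and 2.32).

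Of 12 follicular helper genes, 11 (91.7%) had a peak at the gene, against 62.9% of all protein-coding genes. Bcl6 (chromosome 16, 23965050 to 23988866), their repressor, had 4 final peaks, and the one over its promoter was at 5.76 (5.77, 5.62, 6.41 and 6.90 in libraries 1 to 4). Tox, an HMG-box factor, had 24 peaks at the gene, the costimulator Icos and the interleukin 21 receptor gene Il21r 6 each, and Cxcr5, the receptor that leads cells into follicles, Tox2 and Btla 4 each. Ascl2, a factor upstream of Cxcr5, had no final peak within 20 kb, and library 4 alone had a peak at the gene, at 3.90.

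**Figure D4:**
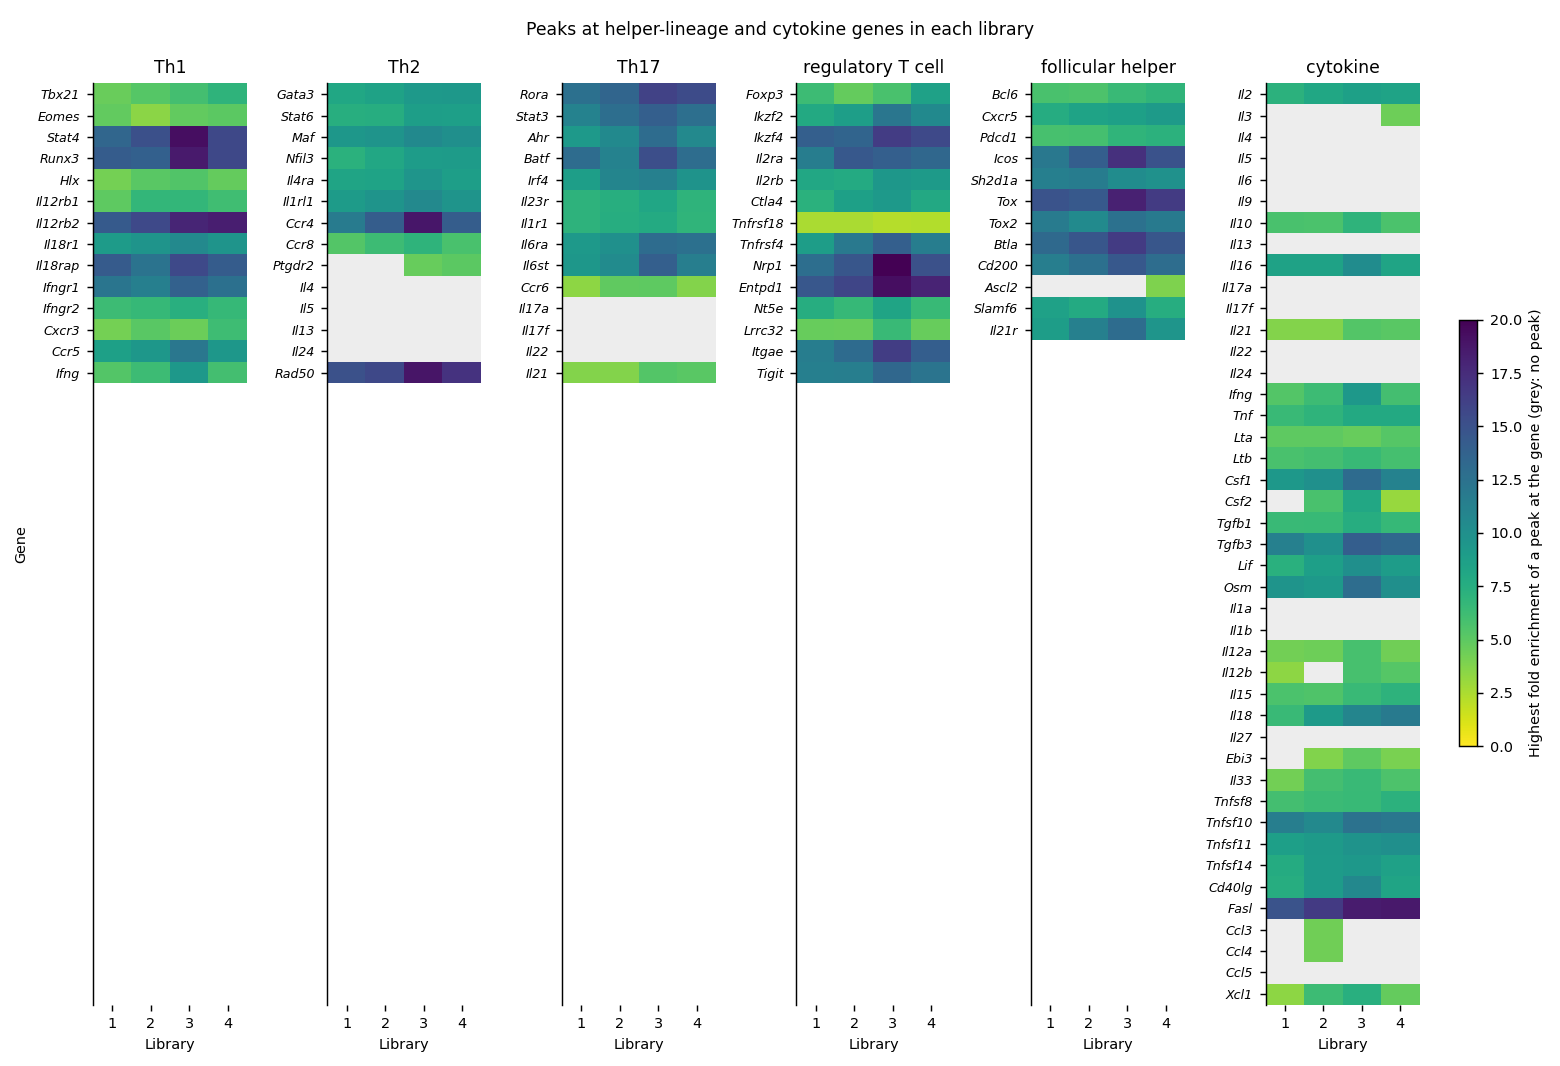
Highest fold enrichment of a peak at helper-lineage and cytokine genes in libraries 1 to 4, by list; the colour scale stops at 20 and grey marks a gene with no peak at the gene in that library. Grey cells gather among the cytokines, and Il4, Il5, Il13, Il17a, Il17f, Il22 and Il9 are grey in all 4 libraries.

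Of 43 cytokine genes 27 (62.8%) had a peak at the gene, near the 62.9% of all protein-coding genes, and 24 had one in each library. Another 14 had one within 20 kb only, and Il6 and Il17f had none. In libraries 1 to 4 the counts were 25, 28, 27 and 28. Il16, the leukaemia inhibitory factor gene Lif, and the TNF family ligands Tnfsf8 and Cd40lg had 4 peaks each, the most of the list. Fasl, the ligand of the death receptor Fas, had the strongest peak of the list, at 16.8 (14.9, 16.6, 18.5 and 18.6), and is named after its value was seen.

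Il2 and Ifng had accessible promoters in these cells labelled as untreated. Whether cells that had met antigen earlier were among them was not tested. At Il2 (chromosome 3, 37120713 to 37125954), the growth factor that T cells make on activation, the 1 final peak covered the whole printed promoter. It had a fold enrichment of 8.03, with 7.16, 8.12, 8.60 and 8.37 in libraries 1 to 4. At Ifng (chromosome 10, 118441046 to 118445894) the peak over the printed promoter was at 7.26 (5.38, 6.31, 9.34 and 5.97), and another in the gene at 5.79 (4.25, 3.06, 7.08 and 5.84). Library 3 stood highest at both genes. Stronger peaks flanked Ifng, the highest 21211 bp below the gene at 16.6 (14.96, 16.4, 18.6 and 17.6). Within 50 kb on either side and in the gene, Ifng had 13 final peaks and Il17a 1.

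The TNF family genes in the major histocompatibility region also had final peaks over part or all of their promoters. Ltb, lymphotoxin beta, had a peak of 5.81 over its whole window (5.75, 5.98, 6.56 and 5.92 in libraries 1 to 4), and Lta, lymphotoxin alpha, one of 4.77 over 235 of 300 bases (4.95, 4.93, 4.61 and 5.25). Tnf, the tumour necrosis factor gene, had a final peak of 6.65 over 221 of the bases. The strongest library peaks that overlapped this final peak, at 6.42, 6.97, 7.88 and 7.87, did not reach the window. Libraries 1 and 3 had no peak in the window, and libraries 2 and 4 had weak ones, at 2.1 and 2.34. The final peak at Tnf also counts for Lta, whose gene lies next to Tnf. Il10, the anti-inflammatory interleukin, had 3 final peaks at the gene, the strongest at 5.63, and its highest values in the libraries were 5.77, 5.66, 6.99 and 5.65. Il21 had 1 peak, inside the gene, at 4.34 (3.68, 3.68, 5.38 and 3.52). Csf2, the granulocyte-macrophage factor gene, had 1, at 6.20, which library 1 lacked and the others had at 5.77, 8.01 and 3.06. Il9 had its nearest peak 1751 bp away, at 13.6 (12.1, 12.6, 16.7 and 14.0), and none at the gene. The promoter windows of Il21, Csf2 and Il9 were not overlapped by a final peak.

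**Figure D5:**
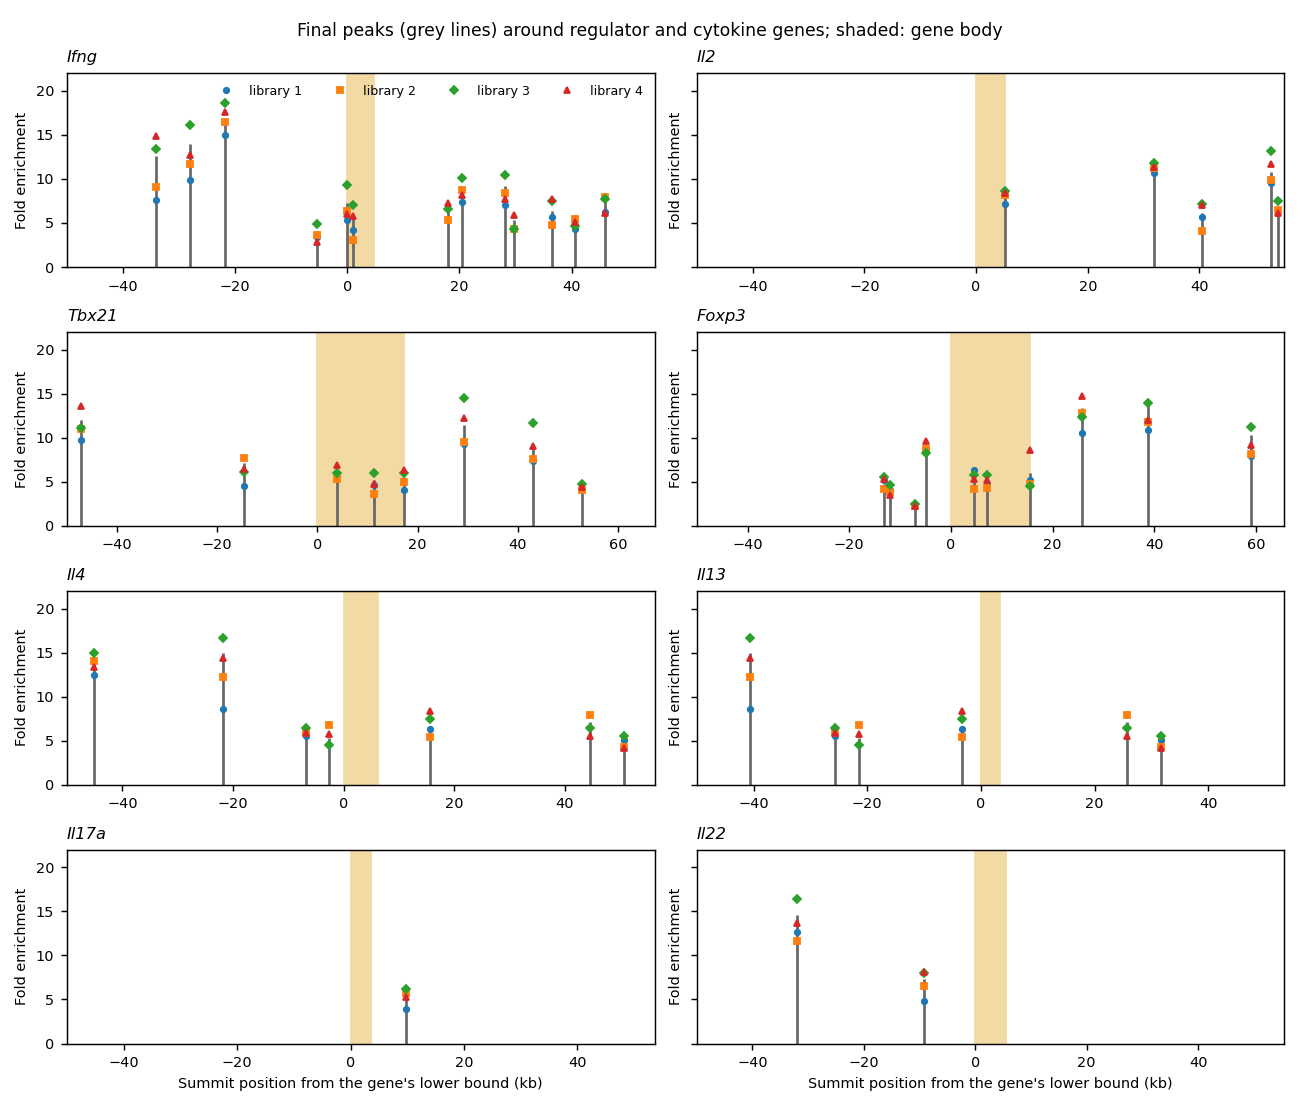
Final peaks (grey lines, height in fold enrichment) and the fold enrichment in libraries 1 to 4 (points) at the summit position in kb from the lower bound of 8 genes, with the gene body shaded and 50 kb on each side. Peaks stand at the Ifng, Il2, Tbx21 and Foxp3 genes, and none in the shaded bodies of Il4, Il13, Il17a and Il22.

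Promoter windows gave a stricter view of the same genes. Of 17492 protein-coding genes with a window in the RefSeq promoter table, which is not complete, 9496 (54.3%) had a window overlapped by a final peak. The share was 12 of 12 for Th1 genes, 8 of 9 for regulatory T cell genes, 7 of 8 for follicular helper genes, 6 of 11 for Th2 genes and 5 of 13 for Th17 genes. It was 17 of 34 for cytokines, 13 of 13 for T cell identity genes, 16 of 17 for naive genes and 14 of 14 for activation genes. Of the markers of other cells it was 2 of 6 for B cells, 3 of 7 for myeloid cells, 2 of 8 for CD8 and NK cells, 0 of 7 for erythroid cells and platelets and 1 of 10 for other tissues. A window overlapped in all 4 libraries as well was found for 51.7% of all genes, for 11 of 12 Th1 genes, the Eomes window being overlapped in no library, for 14 of 34 cytokines, 11 of 13 identity genes and 13 of 14 activation genes. Of the markers it was 1 of 7 for myeloid cells, 1 of 8 for CD8 and NK cells and 0 of 10 for other tissues. In the remaining lists these counts equalled those of the final list. Where a peak overlapped a window, its nearest summit lay a median of 36 bp upstream of the transcript start, and 63.1% of 11177 windows had it upstream.

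Accessible promoters were rich in G and C. The median GC content was 62.0% in the 10528 windows overlapped by the final list and by all 4 libraries, and 49.0% in the 9678 windows with no peak in the final list or any library. The medians of CpG dinucleotides were 22 and 4 in the 300 bases. By GC content, the share of windows overlapped by a final peak went from 3.84% of those at 40% or less to 81.6% of those over 70%. The printed promoters of Ifng and Il2 lay in peaks with 46.0% and 42.0% GC, in bands where 22.5% of windows were overlapped. Those of Tbx21 and Gata3 lay in the band of 60 to 70%, where 79.7% were.

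The 9 motifs were searched as exact letters on both strands, and none of them contains another. The ETS motif CCGGAAGT was in 5.15% of all 21263 windows, in 9.62% of those with a peak in all 4 libraries and in 0.692% of those with none. The same 3 shares were 3.52%, 6.04% and 0.982% for NRF1 (GCGCATGC), 23.6%, 36.6% and 9.26% for KLF and SP (GGGCGGGG), and 2.23%, 3.61% and 0.785% for CRE (TGACGTCA). They ran the other way for RUNX (TGTGGTTT), at 1.61%, 0.997% and 2.25%, and for TCF and LEF (CTTTGATC), at 0.842%, 0.579% and 1.13%. The AP-1 letters TGACTCA also ran that way, with 4.66% of all windows, 2.92% of those with a peak in every library and 6.5% of those without. For GATA the letters AGATAAG were found in 2.64%, 1.46% and 4.01% of the same sets. The NFY letters CCAAT were in 38.2%, 38.7% and 38.5%. The 4 motifs that were more frequent in accessible windows each hold a CpG, and the other 5 hold none. The part of base composition in these shares was not tested. A match describes letters and is not a bound site.

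Irf5, the interferon regulatory factor whose gene is deleted in other groups of the series, had 1 final peak at the gene (chromosome 6, 29526307 to 29529571). It was 3265 bp wide and lay wholly inside the gene. Its fold enrichment was 4.43 in the final list and 4.62, 4.32, 4.56 and 4.52 in libraries 1 to 4, which lay close together.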

How the data were processed

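The 4 ATAC-seq libraries are of untreated IRF5+/+ CD4+ T cells. The submitters' processing notes name Trim Galore 0.5.0, Bowtie2 2.2.9, MACS2 and HOMER 4.10.4, and the build mm10. Per the file headers, MACS2 2.1.1.20160309 called peaks on read pairs without a control, with 1 fragment kept per position, a q value cutoff of 0.05 and a local background of 10 kb. In the deposited lists the pileup is the fragment coverage signal at a peak's summit, and the fold enrichment is the ratio of that pileup to the local background. The −log10 q of a peak also comes from MACS2, per the file headers. The fold enrichments are the authors' and rank peaks within a list. The authors called peaks per library and on the merged libraries, and deposited a final list, whose rule of choice no source read here gives.

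From these lists, peak positions were related to the bounds of 21887 RefSeq protein-coding genes and to RefSeq promoter windows (both GRCm38.p6, the assembly behind mm10), with Python 3.11.15, numpy 2.4.6 and pandas 2.3.3. A final peak counted for a library when a peak of that library overlapped it by at least 1 bp, and the library's value is then the highest fold enrichment among those peaks. The steps were checked on simulated peaks. No test was run apart from Dixon's rule for outlying libraries, given below. The genes named are the 10 with the most peaks, those at the 10 strongest and 10 widest peaks, the lineage regulators and signature cytokines, up to 4 further genes per list with the most peaks at the gene (all where tied), list genes with no peak within 20 kb, and Irf5. A few genes that this rule names are not reported here, and they still count in the totals of their lists. Marker genes of other cells, the densest genes and stretches, and a few further genes were named after their values were seen. The members and lists were chosen with earlier results of these data known. The alternatives covered the peak list, the score cutoff, distances, overlap, sex chromosomes, assignment of peaks to genes and leaving out each library.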

Additional observations from a re-analysis of the deposited data

Results flagged for a closer look

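In a group of 4 libraries, a value was marked when its gap to the nearest other library took more of the whole range than the 95% critical value of Dixon's rule. Of 57 such groups examined, 5 were marked. In independent groups chance marks about 1 in 20, or 2.85. These groups are measures of the same 4 libraries and are not independent, so 5 cannot be judged against 2.85. Of the 5, 4 were values of library 1. It had 39807 peaks, against 47625 to 47790 in the others. Within 1 kb of a gene bound lay 28.6% of its peaks, against 25.3% to 25.7%. It overlapped 91.0% of the final peaks, against 97.8% to 98.3%. It had 35 peaks assigned to Sgms1, against 42 to 43. The fifth was the highest fold enrichment of any peak at Il10, 6.99 in library 3 against 5.65 to 5.77 in the others, where the peaks compared were not all the same one. Library 1 also had the fewest fragments (22.4 M) and the highest share of duplicates (29%), and the part of these in its values was not tested.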

How the results depend on the processing

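The share of final peaks within 1 kb of a gene bound (28.8%) was 41.3% at 5 kb, 26.4% from the summit, 22.1% in the merged list and 32.0% among peaks overlapped in all 4 libraries. As a mean over the single libraries' own lists, leaving out each in turn, it was 25.5% to 26.6%. The median width (884 bp) was 666 bp in the merged list, 960 bp among peaks overlapped in all 4 libraries and 558 to 605 bp as such a mean, an alternative chosen after seeing the data. The share overlapped in all 4 libraries (85.5%) was 57.9% for the merged list, 89.5% at −log10 q of at least 20, 63.9% when 0.5 of a peak had to be covered, and 87.1% to 94.4% over 3 libraries, the highest without library 1. The count of helper-lineage genes (61) was 38 by promoter windows and 60 to 61 with a peak in all of 3 libraries. That of cytokine genes (27) was 17 by promoter windows, 41 within 20 kb and 24 to 26 over 3 libraries. Promoter windows, which not all genes have, were added after the data were seen. The 546 genes with at least 10 peaks became 1172 in the merged list, 338 within 1 kb, 4474 at 10 or more peaks per 100 kb of gene, and a mean of 690 to 776 in 3 libraries' own lists. The cause of these moves was not tested, beyond what each alternative's construction shows. Of 138 alternatives for single genes 105 gave a count within 1.5 times the reported one and 33 did not, 18 of them at a distance of 20 kb. In the merged list Il4 had 1 peak at the gene, Gata3 10 and Il21 4. Depth limits weak peaks, so a missing peak may be one below the threshold. No paired analysis was possible because 1 group is described and no test between groups was run.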

Other observations

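Gene families outside the lists differed in how often they had a final peak at the gene. All 78 mitochondrial ribosomal protein genes, 39 of 40 proteasome subunit genes and 91 of 97 cytosolic ribosomal protein genes had one, against 62.9% of all protein-coding genes. So had 330 of 397 zinc finger (Zfp) genes, 33 of 41 interleukin receptor genes, 27 of 31 integrin genes and 14 of 17 chemokine receptor genes. Of chemokine ligand genes 7 of 37 had a peak, of killer cell lectin-like receptor genes 6 of 29 and of keratin genes 4 of 53. Receptor genes of smell and pheromones were nearly without peaks: 9 of 1110 olfactory receptor genes (0.811%) and 2 of 353 vomeronasal receptor genes (0.567%) had one. The median length of an olfactory receptor gene was 950 bp, far below the 17170 bp of all protein-coding genes. Among 39 homeobox cluster genes 21 had a peak.

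In the antigen receptor loci a final peak lay within 1 kb of 42 of 394 V segments (10.7%), 3 of 153 V segment pseudogenes (1.96%) and 27 of 82 J segments (32.9%). The same share was 62.9% for protein-coding genes and 4.36% for pseudogenes. Among genes of small RNAs it was 8.47% for snRNA, 8.73% for snoRNA, 15.9% for microRNA and 53.2% for tRNA. These kinds of gene were not matched for length. By locus, pseudogenes included, the counts for V segments of the T cell receptor were 3 of 6 Trdv, 3 of 7 Trgv, 14 of 35 Trbv (40%) and 11 of 130 Trav (8.46%). Those of immunoglobulins were 14 of 183 Ighv (7.65%), close to Trav, and 0 of 162 Igkv. Of J segments, 9 of 14 Trbj, 21 of 60 Traj, 2 of 4 Ighj and 0 of 5 Igkj had one. A peak may serve several segments, since they lie close together. T cells rearrange their receptor loci, so segments can be lost from these cells, and the part of that in the counts was not tested. Among genes of microRNAs known from lymphocytes, Mir155 had a final peak at the gene with a fold enrichment of 10.2, Mir17 one of 7.69 at 973 bp, Mir150 one of 5.25 and Mir142 one of 2.76. Mir146, Mir21a, Mir181c and Mir181d had their nearest final peak 2621, 1621, 1487 and 1661 bp away. For Mir29a and Mir29b-1 it was 8253 and 8616 bp away, and for Mir181a-1 and Mir181b-1 21022 and 21206 bp. Mir223, known from myeloid cells, had it 63933 bp away. Over all 1228 microRNA genes, 195 (15.9%) had a final peak at the gene. The families and microRNAs were chosen after the data were seen.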
